A study of Homo sapiens with 33 samples.

Results

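MALAT1, NEAT1, H19, PVT1, MIR31HG and MIR205HG are long noncoding RNAs (lncRNAs) that are often followed in epithelial tumours. They were taken by symbol from a table of estimated RNA-seq counts, and all 6 were found among its 56470 gene symbols. The table holds 33 poly(A)-enriched RNA-seq libraries of SCC1, SCC6 and SCC25, established cell lines of human head and neck squamous cell carcinoma (HNSCC) that were chosen for their sensitivity to cetuximab. Cetuximab (CTX) is an antibody that blocks the epidermal growth factor receptor (EGFR), and the cells received it at 100 nM, or PBS as the untreated control, with the medium renewed daily. Each line had PBS libraries on days 0 to 5, 1 per day, and 5 CTX libraries. These were from days 1 to 5 in SCC1 and SCC25, whereas the labels of SCC6 give day 2 to 2 CTX libraries (called 2a and 2b here) and day 1 to none. Days therefore stand in for replicates. No source used here says that they came from separate cultures, so the p-values measure only the spread between these libraries.

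The libraries summed to between 28508758 and 80727478 estimated counts. They were spread over 5 flow cells (A to E), which partly followed the treatment. All SCC1 CTX libraries were on C, where PBS day 5 was the only SCC1 control. All SCC25 PBS libraries were on A, with CTX days 1 and 2, while the other SCC25 CTX libraries were on B. SCC6 had PBS days 2 to 5 and CTX 2a, 2b and day 3 on D. There the PBS libraries were on lane 1 and the CTX libraries on lane 2. The summed level of 12 squamous epithelial markers was 2841 to 21730.2 CPM (counts per 1000000, scaled by TMM) over the 30 libraries of days 1 to 5. Of these markers, the basal keratins were scarce in SCC6, where KRT5 reached at most 14.6 CPM and KRT14 at most 6.61 CPM on those days. TP63 was 33.1 to 54.3 CPM with PBS and 74.6 to 123 CPM with CTX in SCC6. The marker sum of SCC6 with PBS, 2841 to 5376 CPM, overlapped that of SCC1 with PBS, 3120 to 4627 CPM.

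LncRNAs are transcripts without a long open reading frame, and many of them act in the nucleus or serve as precursors of small RNAs. MALAT1 is retained in nuclear speckles, where splicing factors gather. NEAT1 is the scaffold on which paraspeckles are built. H19 is transcribed from the maternal copy of an imprinted domain that it shares with the growth factor gene IGF2, and its transcript is the precursor of miR-675. PVT1 lies next to the MYC oncogene and is often gained together with it in carcinomas. MIR31HG and MIR205HG are the host transcripts of miR-31 and miR-205, microRNAs that are abundant in squamous epithelium. MALAT1 and the long isoform of NEAT1 end without a canonical poly(A) tail, so that poly(A) enrichment may capture them incompletely.

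The 3 microRNAs below are shown because H19 and MIR31HG had the largest changes in SCC1 and MIR205HG the only called change in SCC6. They are the mature 5p sequences from RefSeq, 5′ to 3′, with the seed (bases 2 to 8) in capitals.
hsa-miR-675-5p (host H19): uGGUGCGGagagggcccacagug
hsa-miR-31-5p (host MIR31HG): aGGCAAGAugcuggcauagcu
hsa-miR-205-5p (host MIR205HG): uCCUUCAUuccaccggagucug
On GRCh37, miR-675-5p matched chr11:2018030-2018052 on the minus strand, in an exon of H19. The match of miR-31-5p was at chr9:21512157-21512177 on the minus strand, in an intron of MIR31HG, and that of miR-205-5p at chr1:209605511-209605532 on the plus strand, in an intron of MIR205HG. The seeds differed from each other. Among 2370 mature human microRNAs, only the seed of miR-675-5p was shared with another, hsa-miR-4466. Poly(A) libraries do not measure mature microRNAs. The precursor rows held 0 to 5 counts per library for MIR31, 1 to 71 for MIR205 and 0 in 33 of 33 libraries for MIR675. Because miR-675 lies in an exon of H19, its reads could be counted for H19. The 0 therefore sets no upper limit on this precursor.

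The annotation (GENCODE, lifted to GRCh37) placed H19 (ENSG00000130600) at chr11:2016396-2025782 on the minus strand with 3462 bases of exon in 4 blocks. MIR31HG (ENSG00000171889) spans chr9:21380072-21559890 on the minus strand with 13 exon blocks. The interferon genes IFNE, IFNA1, IFNA2 and IFNA8 lie inside its span, so reads of overlapping transcripts could be divided between them. MIR205HG (ENSG00000230937) lies at chr1:209602162-209606193 on the plus strand with 3 exon blocks. NEAT1 (ENSG00000245532, chr11:65190245-65213011) and MALAT1 (ENSG00000251562, chr11:65265111-65275544) are each a single exon block on the plus strand, 52.1 kb apart. The strand setting of the counting is not given in the sources used here, so antisense transcripts at these loci cannot be told apart from the members.

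RefSeq start sites gave promoters of 300 bases (250 before and 50 after the start, GRCh38.p14) for 4 of the 6 lncRNAs. Those of H19 and MIR31HG are shown because these RNAs had the largest changes with CTX in SCC1, in opposite directions. Capitals mark the letters GCCNNNGGC, the palindromic AP-2 motif, searched because the study followed the AP-2 factor TFAP2A. The palindrome reads the same on both strands.
H19 (chr11:2001217-2001516, minus strand): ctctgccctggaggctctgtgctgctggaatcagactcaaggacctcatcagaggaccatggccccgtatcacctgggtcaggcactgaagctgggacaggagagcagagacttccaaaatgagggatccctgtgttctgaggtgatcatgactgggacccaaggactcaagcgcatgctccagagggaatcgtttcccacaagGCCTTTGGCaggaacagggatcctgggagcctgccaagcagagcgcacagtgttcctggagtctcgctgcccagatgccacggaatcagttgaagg
MIR31HG (chr9:21559749-21560048, minus strand): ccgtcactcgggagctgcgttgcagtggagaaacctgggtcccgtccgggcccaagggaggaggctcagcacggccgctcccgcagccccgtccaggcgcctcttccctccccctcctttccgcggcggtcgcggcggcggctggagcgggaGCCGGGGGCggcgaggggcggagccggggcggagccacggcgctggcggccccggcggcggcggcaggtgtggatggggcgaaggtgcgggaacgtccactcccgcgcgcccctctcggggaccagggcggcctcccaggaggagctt
The AP-2 letters occurred in 23.2% of 35116 RefSeq promoters. The 2 promoters differed in base composition. That of MIR31HG held 77.7% G and C with 39 CpG dinucleotides, and that of H19 held 57.7% with 6 CpG. The median over all promoters was 58.7%. On GRCh38 miR-675-5p lies at chr11:1996800-1996822. Its positions on the 2 builds place the H19 window inside the GENCODE span of H19, not at its upstream end. The H19 values therefore describe the RefSeq start only. The MIR205HG promoter (chr1:209428570-209428869, 50.3% G and C) held neither these letters nor TGANTCA (AP-1), CACGTG (E-box) or TATAAA, on either strand, which occur in 7.71%, 7.26% and 11.5% of promoters. Of the 2 MALAT1 promoters in RefSeq, the downstream copy held TATAAA beginning 30 bases before the start.

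In PBS the lines differed strongly in these RNAs. Levels were compared between genes per kilobase of exon (CPM per kb), and the mean over PBS days 0 to 5 is given. H19 stood highest in SCC1 at 422 CPM per kb and in SCC6 at 68.4 CPM per kb, but was only 2.56 CPM per kb in SCC25. In SCC25 the highest level was that of MIR205HG, at 49.2 CPM per kb, against 13.9 in SCC1 and 6.11 in SCC6. Without division by length, NEAT1 (533 CPM) and MALAT1 (198 CPM) stood above MIR205HG (174 CPM) in SCC25. That rank thus depends on the annotated exon length, and poly(A) capture of NEAT1 and MALAT1 may be incomplete. NEAT1 was 12.9, 5.96 and 23.4 CPM per kb in SCC1, SCC6 and SCC25, and MALAT1 was 11.0, 8.48 and 18.9 in the same order. These nuclear RNAs thus had the same order of lines, with SCC25 highest and SCC6 lowest. PVT1 was 0.726, 2.69 and 0.576 CPM per kb, with SCC6 highest. MIR31HG was the lowest of the 6 RNAs in each line, at 0.345, 0.146 and 0.382 CPM per kb.

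**Figure D1:**
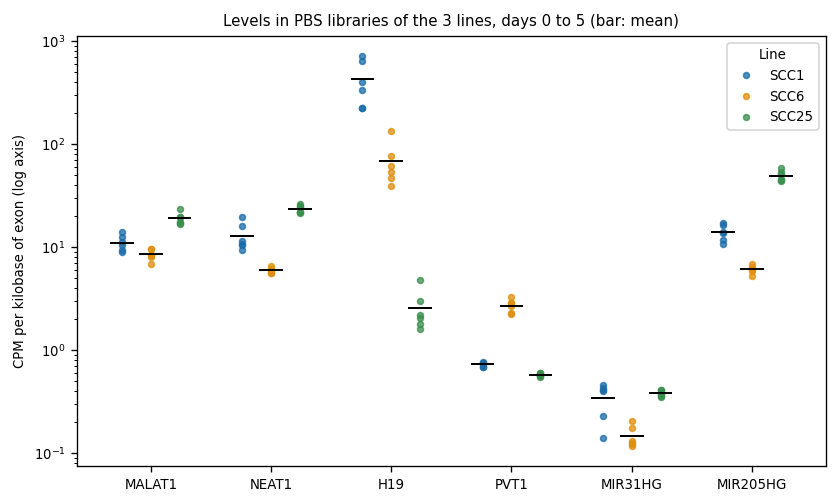
Level of each lncRNA in PBS libraries of days 0 to 5, in CPM per kilobase of exon on a log axis, for SCC1, SCC6 and SCC25. Points are libraries and bars are means of 6; H19 falls from 422 in SCC1 to 2.56 in SCC25, while MIR205HG is highest in SCC25 at 49.2.

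The line differences were tested with edgeR's quasi-likelihood test over all genes, with p-values adjusted by the Benjamini-Hochberg method and called at 0.05. In PBS, 5 of 6 lncRNAs differed between SCC1 and SCC25, where 69.0% of all tested genes did. All 6 differed between SCC6 and SCC25 (72.1% of all genes) and between SCC1 and SCC6 (69.1%), so these shares have a high background. H19 had the widest range. It was 165-fold higher in SCC1 than in SCC25 (log2 7.36, SE 0.44, adjusted p = 9.2e-12) and 6.13-fold higher in SCC1 than in SCC6 (log2 2.62, SE 0.35, adjusted p = 1.5e-06). MIR205HG was 8.01-fold lower in SCC6 than in SCC25 (log2 −3.00, SE 0.11, adjusted p = 5.6e-15), and PVT1 was 4.69-fold higher in SCC6 than in SCC25 (log2 2.23, SE 0.084, adjusted p = 5.9e-15). The only pair of lines not separated was SCC1 and SCC25 for MIR31HG (log2 −0.15, 95% interval −0.60 to 0.30, adjusted p = 0.56).

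Cetuximab was compared with PBS within each line over days 1 to 5, 5 libraries against 5. Of the 6 lncRNAs, 4 passed the test in SCC1 (3 higher and 1 lower), 1 in SCC6 (higher) and 2 in SCC25 (1 higher and 1 lower). The background of these counts, as the share of all tested genes called, was 44.8% in SCC1 (22.7% higher and 22.1% lower), 30.1% in SCC6 (15.6% and 14.6%) and 18.3% in SCC25 (8.8% and 9.5%). Two-sided exact permutation tests of single RNAs cannot go below p = 0.00794 with 5 against 5 libraries. H19 was higher with CTX in SCC1 and SCC25, MIR205HG in SCC1 and SCC6, and MALAT1 in SCC1. MIR31HG was lower in SCC1 and PVT1 in SCC25. NEAT1 passed in no line.

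**Figure D2:**
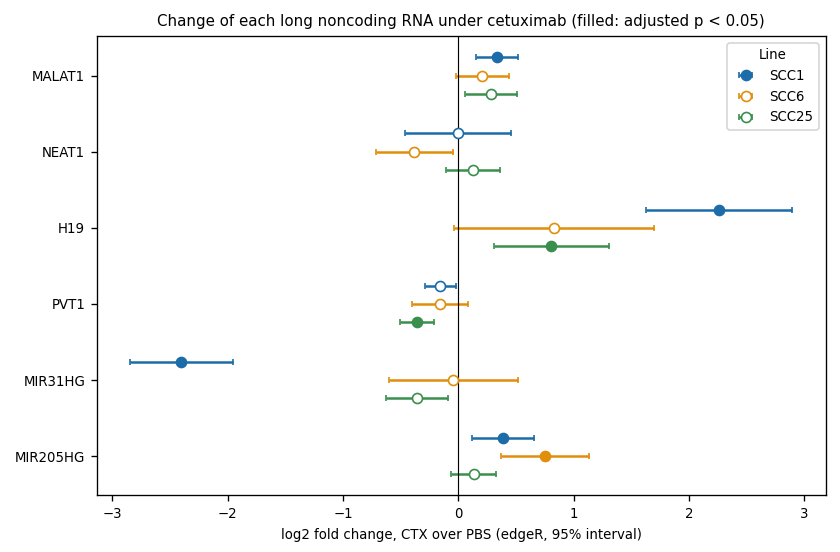
Change with cetuximab (CTX against PBS, log2 fold change) of the 6 lncRNAs in SCC1, SCC6 and SCC25, 5 libraries against 5. Bars are 95% intervals and filled points passed an adjusted p of 0.05; the outlying values are H19 at 2.26 and MIR31HG at −2.40, both in SCC1.

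H19 had the largest increase. In SCC1 its PBS levels were 2187, 1166, 776, 774 and 1383 CPM on days 1 to 5, after 2471 CPM on day 0. With CTX they were 4763, 4869.8, 5088, 6056 and 9244 CPM. Every CTX library lay above every PBS library, as in 15.3% of all tested genes, and H19 alone took 0.528% to 0.998% of all counts in the CTX libraries. The increase was 4.80-fold (log2 2.26, SE 0.29, adjusted p = 5.9e-05, exact permutation p = 0.00794). Day by day the ratio to PBS was 2.18, 4.18, 6.56, 7.82 and 6.68. The change of this ratio with day was +0.42 per day on the log2 scale (SE 0.15) and did not pass (adjusted p = 0.27). Within flow cell C, where a lone PBS library is assumed to vary like the others, the increase was 2.12 on the log2 scale (adjusted p = 0.0063).

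In SCC25, where H19 is scarce, the PBS levels were 7.06, 6.17, 7.57, 10.3 and 16.4 CPM on days 1 to 5 and the CTX levels 14.8, 19.2, 14.1, 17.5 and 18.1 CPM. The groups overlapped through PBS day 5 alone. The increase was 1.75-fold (log2 0.81, SE 0.23, adjusted p = 0.030, exact permutation p = 0.0238). It no longer passed within flow cell A (log2 0.83, adjusted p = 0.11), nor without any one of 7 libraries (PBS days 1 to 4 and CTX days 2, 4 and 5; adjusted p = 0.051 to 0.074). PBS cells also gained H19 over time in SCC25, from 5.59 CPM on day 0, at +0.29 per day on the log2 scale (SE 0.043, adjusted p = 0.0012, where 10.7% of all genes passed).

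In SCC6 the PBS levels of H19 were 187, 136, 163, 263 and 461 CPM on days 1 to 5. With CTX they were 279 and 196 CPM in libraries 2a and 2b and 330.1, 675 and 695 CPM on days 3 to 5. The groups overlapped, and the difference of 0.83 on the log2 scale (SE 0.40, adjusted p = 0.13) did not pass. With day as a block it passed, at 0.79 with library 2a set as day 1 (adjusted p = 0.0074) and at 0.79 with 2b as day 1 (adjusted p = 0.023). Both fits set a library as day 1 against its label of day 2, and both libraries followed PBS day 2 more closely than PBS day 1. It also passed without PBS day 5 (log2 1.19, adjusted p = 0.033), but within flow cell D the difference was 0.07 (adjusted p = 0.91). Flow cell D set PBS days 2 to 5 against CTX 2a, 2b and day 3, so its days were not matched. On days 3 to 5 the ratios to PBS of the same day were 2.03, 2.57 and 1.51.

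MIR31HG, the host of miR-31, had the largest decrease. In SCC1 its PBS levels were 3.79, 6.69, 7.16, 6.74 and 7.66 CPM on days 1 to 5, after 2.33 CPM on day 0, and its CTX levels were 1.23, 1.30, 1.00, 0.883 and 1.59 CPM. All CTX libraries were below all PBS libraries, as in 16.0% of all genes. These levels rest on 35.9 to 65.7 counts per CTX library and 114 to 356 per PBS library. The decrease was 5.28-fold (log2 −2.40, SE 0.21, adjusted p = 3.2e-06, exact permutation p = 0.00794), and −2.67 on the log2 scale within flow cell C (adjusted p = 0.00031). The PBS level on day 1 was 3.09 times the CTX level, and on days 2 to 5 this ratio was 5.14, 7.13, 7.64 and 4.82.

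In SCC25 the CTX levels of MIR31HG were also all below the PBS levels, as in 7.88% of all genes. They were 5.50, 5.84, 3.61, 4.88 and 4.48 CPM with CTX against 5.85, 6.81, 6.00, 6.08 and 6.40 CPM with PBS on days 1 to 5. The difference was small (log2 −0.36, SE 0.12, exact permutation p = 0.00794). It missed the threshold over all genes (adjusted p = 0.063) but passed with day as a block (adjusted p = 0.034) and without CTX day 2 (adjusted p = 0.034). Within flow cell A, which held only CTX days 1 and 2, it was −0.14 (adjusted p = 0.47). In SCC6 the PBS levels were 2.90, 2.18, 1.93, 2.02 and 2.09 CPM and the CTX levels 2.05 and 0.977 CPM (2a and 2b) and 2.21, 2.62 and 3.00 CPM (days 3 to 5). These groups overlapped and the difference was −0.04 on the log2 scale (95% interval −0.60 to 0.52, adjusted p = 0.92).

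MIR205HG, the host of miR-205, was higher with CTX in SCC6 in every library. Its PBS levels were 21.7, 24.4, 20.7, 22.5 and 18.5 CPM on days 1 to 5. With CTX they were 39.3 and 54.4 CPM in 2a and 2b, and 29.5, 29.5 and 30.9 CPM on days 3 to 5. The groups did not overlap, as in 10.8% of genes with CTX above PBS. The increase was 1.68-fold (log2 0.75, SE 0.18, adjusted p = 0.0077, exact permutation p = 0.00794), and 0.93 on the log2 scale within flow cell D (adjusted p = 0.0041). On that flow cell the PBS and CTX libraries were on different lanes, so lane and treatment cannot be told apart.

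In SCC1, MIR205HG was 59.8, 57.5, 38.0, 41.3 and 48.3 CPM with PBS on days 1 to 5 and 71.0, 70.8, 57.2, 60.0 and 59.8 CPM with CTX. CTX was higher on each of 5 days, yet the groups overlapped slightly. The increase of 1.31-fold (log2 0.39, SE 0.12, adjusted p = 0.023) did not pass within flow cell C (log2 0.40, adjusted p = 0.081), nor without PBS day 3 or 4 or CTX day 1 or 2 (adjusted p = 0.051 to 0.060). In SCC25 the level was the highest of the lines, at 155 to 204 CPM in PBS and 172 to 217 CPM in CTX on days 1 to 5. The difference there was 0.13 on the log2 scale (SE 0.089, adjusted p = 0.32), and with day as a block 0.14 (adjusted p = 0.036).

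**Figure D3:**
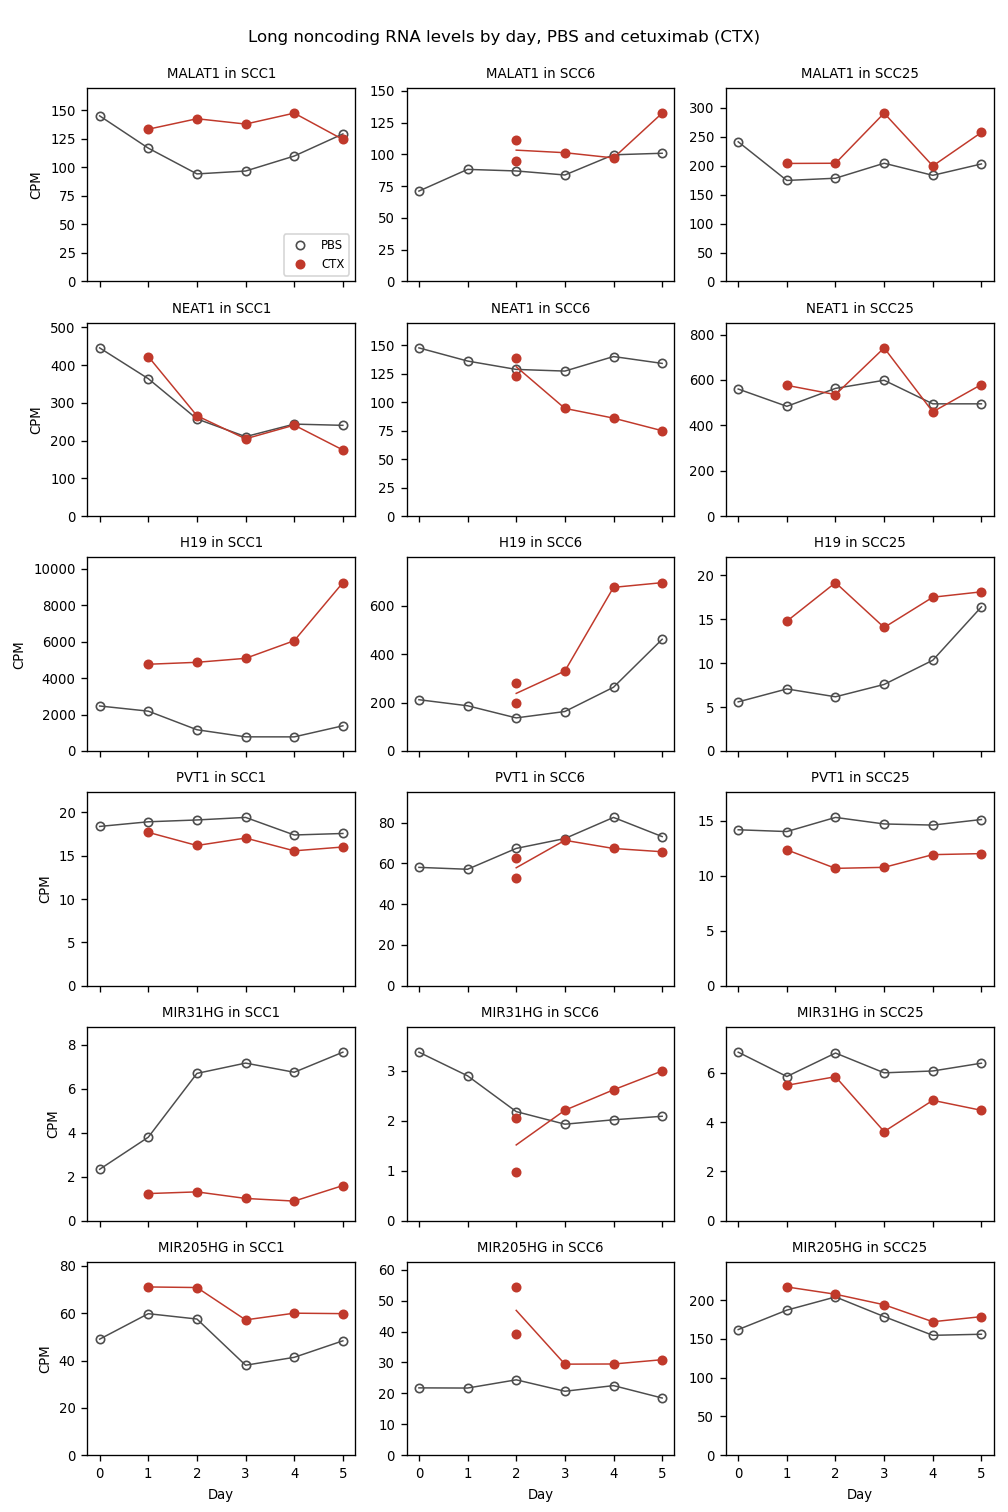
Level of each lncRNA by day in SCC1, SCC6 and SCC25, in CPM, with open points for PBS and filled points for cetuximab; lines join the mean of each day. In SCC1 the CTX points of H19 (4763 to 9244 CPM) lie above all PBS points and those of MIR31HG (0.883 to 1.59 CPM) below all of them.

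MALAT1, the nuclear speckle RNA, was modestly higher with CTX in SCC1. PBS levels were 117, 94.2, 96.7, 109.8 and 129 CPM on days 1 to 5 and CTX levels 133, 142, 138, 147 and 124 CPM. CTX was higher on 4 of 5 days, and the groups overlapped on day 5. The 1.26-fold increase (log2 0.34, SE 0.085, adjusted p = 0.0065, exact permutation p = 0.0159) fell to 0.08 on the log2 scale within flow cell C (adjusted p = 0.63). It was also lost when PBS day 0, at 145.0 CPM, joined the controls (log2 0.25, adjusted p = 0.070). On days 1 to 5 in SCC6 the levels were 83.8 to 101 CPM with PBS and 95.1 to 133 CPM with CTX (log2 0.21, SE 0.11, adjusted p = 0.16). In SCC25 they were 175 to 204 CPM with PBS and 199.6 to 291 CPM with CTX (log2 0.29, SE 0.10, adjusted p = 0.073), and this difference passed with day as a block (log2 0.28, adjusted p = 0.011) but was 0.11 within flow cell A (adjusted p = 0.37).

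NEAT1, the paraspeckle RNA, varied more between days than between treatments in SCC1. It fell from 446 CPM on day 0 to 364, 258, 211, 244 and 241 CPM in PBS on days 1 to 5, a trend that missed the threshold (−0.19 per day on the log2 scale, SE 0.043, adjusted p = 0.062). With CTX it was 423, 266, 205, 241 and 175 CPM, so both series began high. The CTX difference in SCC1 was 0.00 on the log2 scale with a wide 95% interval of −0.46 to 0.46 (adjusted p = 1.0). In SCC6 the PBS levels of NEAT1 were 136, 129, 127, 140.0 and 134 CPM, and the CTX levels were 123 and 139 CPM (2a and 2b), then 94.5, 86.0 and 75.0 CPM on days 3 to 5. Library 2a and the CTX libraries of days 3 to 5 thus lay below the PBS libraries of days 1 to 5, and 2b among them. The difference over all libraries was −0.38 (SE 0.15, adjusted p = 0.080). It passed without library 2b (−0.52, adjusted p = 0.011) and, in an alternative chosen after seeing the data, without 2a and 2b (−0.67, adjusted p = 0.00077). Flow cell E held just the last 2 CTX days of this line, and the difference was −0.15 within flow cell D (adjusted p = 0.37) and −0.16 with flow cell as a covariate (adjusted p = 0.36). In SCC25 NEAT1 was 484 to 599 CPM with PBS and 459.6 to 741 CPM with CTX, a difference of 0.13 (95% interval −0.11 to 0.37, adjusted p = 0.45).

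PVT1 (ENSG00000249859), the neighbour of MYC, spans chr8:128806772-129199347 on the plus strand of GRCh37 with 59 exon blocks. It was lower with CTX in SCC25. The PBS levels were 14.0, 15.3, 14.7, 14.6 and 15.1 CPM and the CTX levels 12.4, 10.7, 10.8, 11.9 and 12.0 CPM on days 1 to 5. The groups did not overlap, as in 7.88% of genes with CTX below PBS, and the decrease was 1.28-fold (log2 −0.36, SE 0.069, adjusted p = 0.0045, exact permutation p = 0.00794). Within flow cell A it was −0.36 (adjusted p = 0.030). In SCC1 the PBS levels were 17.4 to 19.4 CPM and the CTX levels 15.6 to 17.7 CPM, lower with CTX on each of 5 days. That difference of −0.15 (SE 0.063) missed the threshold (adjusted p = 0.061) and passed with day as a block (−0.17, adjusted p = 0.039) and without PBS day 4 or 5 or CTX day 1 (adjusted p = 0.035 to 0.0496), while it was −0.09 within flow cell C (adjusted p = 0.63). In SCC6 the levels were 57.1 to 82.6 CPM with PBS and 52.9 to 71.4 CPM with CTX (log2 −0.16, SE 0.11, adjusted p = 0.31). PVT1 in SCC6 rose in PBS over days 0 to 5, at +0.08 per day on the log2 scale (SE 0.027, adjusted p = 0.042), but not with no filter on low counts (adjusted p = 0.088) nor without PBS day 0, 1, 3 or 4 (adjusted p = 0.077 to 0.16).

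Culture time itself was examined in the PBS libraries of days 0 to 5. With edgeR 0 of 6 passed in SCC1, where 2.49% of all genes did, although 3 had an unadjusted p under 0.05 and DESeq2 called 2. In the other lines 1 passed in SCC6 (PVT1, 32.7% of all genes) and 1 in SCC25 (H19, 10.7% of all genes). MIR31HG rose from 2.33 to 7.66 CPM over these days in SCC1 at +0.30 per day (SE 0.075, adjusted p = 0.074) and changed by −0.16 per day in SCC6 (SE 0.057, adjusted p = 0.051). For a change of the CTX difference with day, edgeR called 0 of 6 in SCC1, where 103 genes (0.524%) passed and 1 member, H19, had an unadjusted p under 0.05 (+0.42 per day). DESeq2 called 0 of 6 members in either line. In SCC25 edgeR called 0 of 20740 genes (0.0%), with 1275 at an unadjusted p under 0.05, and DESeq2 called 29. H19 was among the former at −0.28 per day (SE 0.092, unadjusted p = 0.012, adjusted p = 0.71), opposite in sign to SCC1, with ratios to PBS of 2.09, 3.11, 1.86, 1.70 and 1.10 on days 1 to 5.

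With the 3 lines fitted together, 5 of 6 lncRNAs passed, where 42.7% of all genes did. H19 was 2.47-fold higher (log2 1.31, SE 0.24, adjusted p = 6.3e-05) and MIR31HG 1.86-fold lower with CTX (log2 −0.89, SE 0.23, adjusted p = 0.0025). MIR205HG was 0.42 higher on the log2 scale (SE 0.093, adjusted p = 0.00047), MALAT1 0.28 higher (SE 0.060, adjusted p = 0.00032) and PVT1 changed by −0.22 (SE 0.049, adjusted p = 0.00068). With flow cell as a covariate, H19 (log2 0.70, adjusted p = 0.076) and MALAT1 (log2 0.12, adjusted p = 0.22) no longer passed.

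The response differed between lines for 2 of 6 lncRNAs, against 26.1% of all genes. For MIR31HG (adjusted p = 7.9e-07) the decrease in SCC1 exceeded that in SCC6 by 2.40 on the log2 scale (SE 0.30, adjusted p = 8.9e-07, 19.3% of all genes passed) and that in SCC25 by 2.06 (SE 0.29, adjusted p = 1.5e-05, 8.52% of all genes). For H19 (adjusted p = 0.036) the increase in SCC1 exceeded that in SCC6 by 1.41 (SE 0.48, adjusted p = 0.039), while the 1.44 by which it exceeded that in SCC25 missed the threshold (SE 0.50, adjusted p = 0.069). The H19 call was lost with flow cell as a covariate (adjusted p = 0.12) and without any one of 7 libraries (SCC1 PBS days 2 to 4, SCC1 CTX days 4 and 5, SCC6 PBS day 4 and SCC25 PBS day 5; adjusted p = 0.052 to 0.093). The SCC1 to SCC6 difference of H19 was likewise lost with flow cell (adjusted p = 0.062) and without any one of 10 libraries (SCC1 PBS days 2 to 4, SCC1 CTX days 4 and 5, SCC6 PBS days 4 and 5, and SCC6 CTX 2a, 2b and day 3; adjusted p = 0.056 to 0.12). For MIR205HG the joint test narrowly missed (adjusted p = 0.052). It passed with DESeq2 (adjusted p = 0.048) and without any one of 11 libraries (PBS days 4 and 5 and CTX day 1 of SCC25, PBS days 1, 3 and 4 and CTX day 1 of SCC1, and PBS day 2 and CTX days 3 to 5 of SCC6; adjusted p = 0.029 to 0.049), and the increase in SCC6 exceeded that in SCC25 by 0.62 (SE 0.20, adjusted p = 0.028, 17.5% of all genes). This difference was lost with flow cell (adjusted p = 0.081), without SCC25 PBS day 2 (adjusted p = 0.057) and without SCC25 CTX day 4 (adjusted p = 0.051). The responses of MALAT1 (adjusted p = 0.86), NEAT1 (adjusted p = 0.28) and PVT1 (adjusted p = 0.28) were not shown to differ between lines.

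Genes around the members were taken as all protein-coding genes within 250 kb. Around H19, 8 of 10 tested neighbours were higher with CTX in SCC1 and 2 were lower. Of all genes in SCC1, 22.7% were higher and 22.1% lower. IGF2, the paternally expressed growth factor 125 kb away, rose in SCC1 from 20.7–62.8 CPM with PBS to 171–531 CPM with CTX, without overlap (8.77-fold, log2 3.13, SE 0.39, adjusted p = 4.0e-05). In SCC6 IGF2 went the other way, from 284–631 CPM to 228–304 CPM (log2 −0.83, SE 0.21, adjusted p = 0.011), and in SCC25 its difference was −0.67 (SE 0.24, adjusted p = 0.072). TNNT3, a skeletal muscle troponin 56.5 kb from H19, was higher with CTX in each line, by 3.61, 1.98 and 1.02 on the log2 scale in SCC1, SCC6 and SCC25 (adjusted p = 4.8e-06, 0.0014 and 0.039). It was scarce in SCC6, at 0.154–0.531 CPM with PBS and 0.890–1.87 CPM with CTX. In SCC25 it was also scarce, at 0.171–0.501 CPM with PBS and 0.433–0.808 CPM with CTX, and the groups overlapped. PRR33 was higher in SCC1 (log2 3.05, adjusted p = 0.00023). The lower neighbours in SCC1 were the mitochondrial ribosome gene MRPL23 (−0.77) and TH, tyrosine hydroxylase (−1.30). In SCC6 the neighbours of H19 had 1 higher and 1 lower of 7, and in SCC25 1 of 9 was called, TNNT3. Of all genes, 30.1% were called in SCC6 and 18.3% in SCC25, so neither count exceeded the background.

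**Figure D4:**
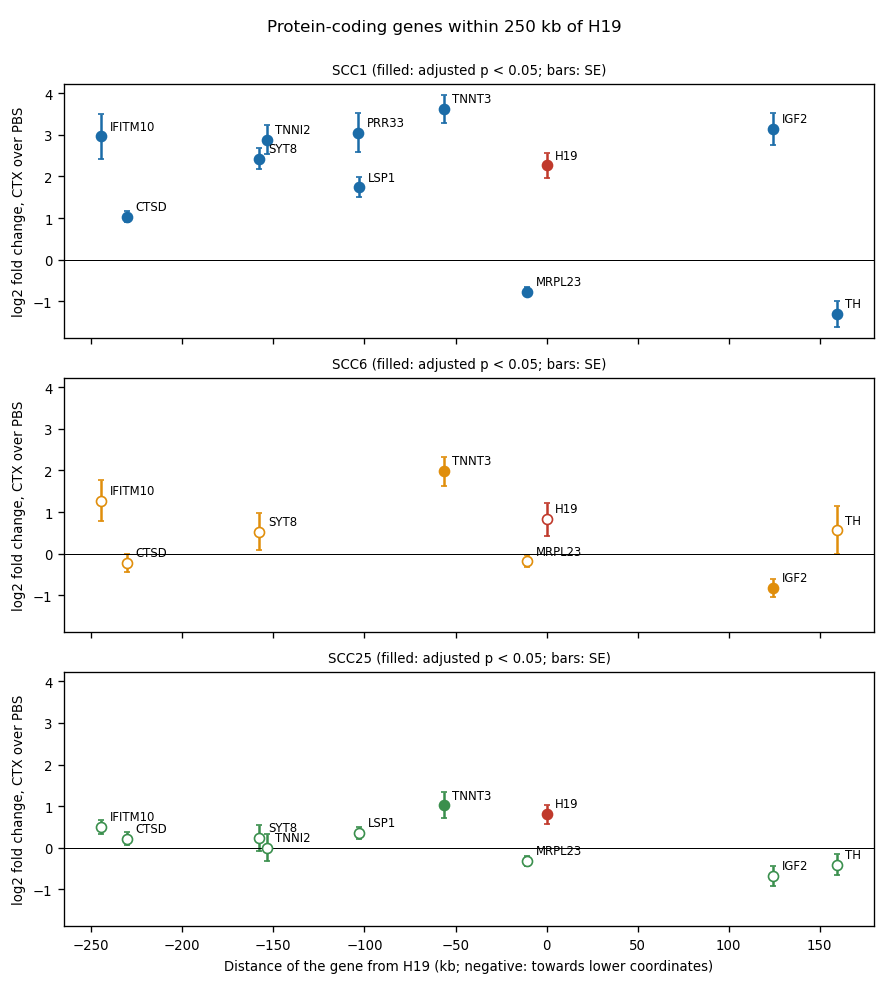
Change with cetuximab (log2 fold change, bars are SE) of the protein-coding genes tested within 250 kb of H19, against their distance from H19 in kb, for SCC1, SCC6 and SCC25. In SCC1 8 of 10 neighbours are higher (22.7% of all genes), IGF2 by 3.13, whereas in SCC6 IGF2 lies at −0.83.

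The only protein-coding gene within reach of PVT1 was MYC, the oncogenic transcription factor, 51.6 kb away. MYC was lower with CTX without overlap in SCC1 (64.0–98.3 against 114–172 CPM), SCC6 (233–322 against 448–769 CPM) and SCC25 (225–282 against 407–602 CPM). Its log2 changes were −0.84, −1.16 and −1.04 (adjusted p = 0.00016, 0.00026 and 0.00010). IFNE, an interferon gene of epithelia inside MIR31HG and on the same strand, was lower in SCC1 by −2.16 (SE 0.22, adjusted p = 1.1e-05) and in SCC6 by −1.01 (SE 0.26, adjusted p = 0.013), and its difference in SCC25 was −0.35 (adjusted p = 0.14). It is a scarce transcript, at most 4.30 CPM, and how far its reads are shared with MIR31HG was not tested. LAMB3, a laminin subunit of the basement membrane 182 kb from MIR205HG, was lower with CTX in each line, by −1.23, −1.22 and −0.34 on the log2 scale (adjusted p = 8.0e-05, 0.0013 and 0.027). MIR205HG was called in the opposite direction in SCC1 and SCC6, while its difference in SCC25 did not pass (log2 0.13, adjusted p = 0.32). CAMK1G, a calcium-dependent kinase gene 151 kb from MIR205HG, was lower in SCC6 (−1.84, adjusted p = 0.0031). MTAP, the methionine salvage gene beyond the upstream end of MIR31HG, was lower in SCC1 (−0.56, adjusted p = 1.4e-05) and SCC25 (−0.50, adjusted p = 0.00077), without overlap of the groups. KLHL9, a ubiquitin ligase adaptor gene 44.7 kb beyond the other end of MIR31HG, was higher in SCC1 (0.32, adjusted p = 0.0026), and its differences in SCC6 (0.27, adjusted p = 0.058) and SCC25 (0.11, adjusted p = 0.24) did not pass. FRMD8, 9.25 kb from NEAT1, passed in no line (log2 0.02, 0.20 and −0.16 in SCC1, SCC6 and SCC25).

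Other RNAs and proteins of the same kinds were followed by lists. Of 41 other tumour lncRNAs, 11 were higher and 8 lower of 34 tested in SCC1, 7 and 6 of 36 in SCC6, and 8 and 5 of 38 in SCC25. Medians over the list were 0.10, 0.10 and −0.02, near those over all genes (0.02, 0.00 and 0.01). The called share of the list was 55.9%, 36.1% and 34.2%, against 44.8%, 30.1% and 18.3% of all genes. TINCR, a lncRNA of epidermal differentiation, was higher in SCC1 (log2 2.70, adjusted p = 0.00017) and SCC6 (1.29, adjusted p = 0.0016). SPRY4-IT1, from an intron of the ERK target SPRY4, was lower in SCC1 (−1.88, adjusted p = 0.00026) and SCC6 (−1.97, adjusted p = 0.0034). LINC00707 was lower in each line, by −0.94 in SCC1 (adjusted p = 0.00023), from 25.1 ± 9.68 to 6.41 ± 3.73 CPM in SCC6 (SD, n = 5, adjusted p = 0.0042 by edgeR) and by −0.92 in SCC25 (adjusted p = 0.00011). LINC00511 was higher in each line, by 1.89, 0.58 and 0.34 (adjusted p = 5.8e-06, 0.0038 and 0.017), as was TP53TG1, by 1.13, 1.33 and 0.42 (adjusted p = 1.2e-05, 0.0012 and 0.049). HOTTIP was higher in SCC25 (1.10, adjusted p = 0.0076) and the imprinted MEG3 lower in SCC25 (−0.67, adjusted p = 0.00024), and neither was tested in SCC1 or SCC6. Over all annotated lncRNAs, 247 were higher and 97 lower of 1010 tested in SCC1, 125 and 86 of 937 in SCC6, and 108 and 49 of 1131 in SCC25, which is 34.1%, 22.5% and 13.9% called.

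Among microRNA host transcripts, 6 were higher and 4 lower of 23 in SCC1, 2 and 3 of 20 in SCC6, and 2 and 2 of 24 in SCC25. The shares called, 43.5%, 25.0% and 16.7%, were near those over all genes. MIR31HG and MIR205HG are not counted in that list. MIR222HG, the host of miR-221 and miR-222, was lower in SCC6 (−1.19, adjusted p = 0.0042), and MIR100HG lower in SCC1 (−0.73, adjusted p = 0.00049) and SCC25 (−0.66, adjusted p = 0.0050). MIR9-3HG was higher in SCC1 (2.10, adjusted p = 0.00019) but scarce, at means of 0.138 CPM with PBS and 0.587 CPM with CTX. Hosts of small nucleolar RNAs had 2 higher and 5 lower of 21 in SCC1, 1 and 15 of 23 in SCC6, and 1 and 6 of 23 in SCC25. Their medians were −0.13, −0.53 and −0.21, and 33.3%, 69.6% and 30.4% were called. SNHG16 was lower in SCC1 (−0.24, adjusted p = 0.025) and SCC6 (−0.80, adjusted p = 0.00028).

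The protein partners of NEAT1 and MALAT1 had small changes, and those called were lower. Of 20 paraspeckle protein genes, 12, 4 and 5 were lower in SCC1, SCC6 and SCC25, with medians of −0.19, −0.26 and −0.15. Of all genes, 22.1%, 14.6% and 9.5% were lower, so that the SCC6 count was near the background. NONO, a core paraspeckle protein, was lower in SCC1 (−0.24, adjusted p = 0.00057) and SCC25 (−0.15, adjusted p = 0.023), and its partner SFPQ in SCC1 (−0.32, adjusted p = 0.019). PSPC1 passed in no line (−0.25, −0.41 and −0.13). Of 22 nuclear speckle protein genes, 12, 7 and 6 were lower, or 54.5%, 31.8% and 27.3%, with medians of −0.18, −0.24 and −0.09. SON, the speckle scaffold, passed in no line (−0.01, −0.18 and 0.02).

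Of the imprinted genes, 5 were higher and 1 lower of 12 tested in SCC1, 5 and 2 of 13 in SCC6, and 3 and 2 of 13 in SCC25. Of all genes, 44.8%, 30.1% and 18.3% were called, so that the SCC1 count was near the background. CDKN1C, a maternally expressed inhibitor of the cell cycle, was higher in SCC1 (2.67, adjusted p = 0.00059) and SCC6 (1.72, adjusted p = 0.0050) but not in SCC25 (−0.08, adjusted p = 0.82). It was scarce in SCC1, at means of 0.264 CPM with PBS and 1.69 CPM with CTX. PHLDA2, maternally expressed in the same chromosome region, was lower in SCC1 (−1.90, adjusted p = 0.00012) and SCC6 (−1.63, adjusted p = 0.00019). Of the ERK pathway output genes, which are transcribed downstream of EGFR, 12 of 14 were lower in each line, with medians of −1.91, −1.54 and −0.99.

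**Figure D5:**
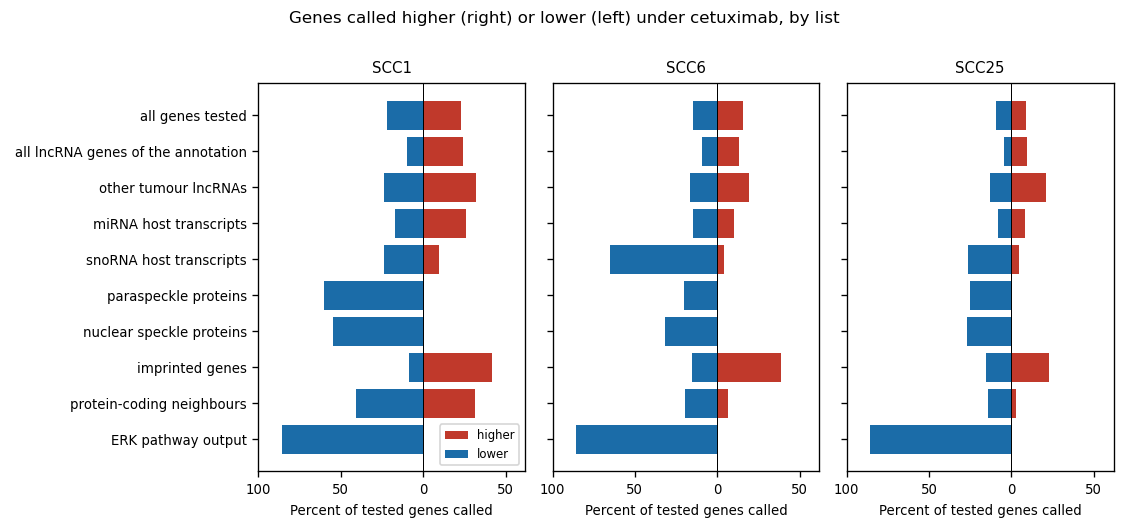
Share of the tested genes of each list that were higher or lower with cetuximab (percent, adjusted p of 0.05) in SCC1, SCC6 and SCC25. ERK pathway output is lower in 12 of 14 genes in each line, and the paraspeckle and nuclear speckle proteins have only lower calls.

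Markers of other cell types and signs of RNA quality moved with some of these changes. Summed fibroblast markers (8 genes, none at 0 in all libraries of a group) were higher with CTX in each line, at 50.1 to 146 against 21.0 to 32.9 CPM in SCC1, 9.04 to 115 against 2.97 to 5.08 CPM in SCC6 and 254 to 407 against 148 to 197 CPM in SCC25. Of these markers, 4 of 4 tested were higher in SCC1, 2 of 2 in SCC6 and 4 of 8 in SCC25, where 1 was lower. COL1A1 alone was 30.5 to 88.5 CPM with CTX and 11.7 to 21.0 CPM with PBS in SCC1. In SCC6 it was 7.75 to 88.4 and 2.27 to 4.52 CPM, and in SCC25 42.4 to 88.5 and 48.9 to 59.4 CPM. H19 was called higher in SCC1 and SCC25, and its difference in SCC6 was 0.83 on the log2 scale (adjusted p = 0.13 by edgeR). These are bulk libraries of established cell lines, in which RNA per cell and the number of cells of the line that express a marker cannot be told apart. The squamous markers themselves had 9 higher and 2 lower of 12 in SCC1, 4 and 2 of 12 in SCC6 and 3 and 1 of 12 in SCC25. Over all genes 22.7%, 15.6% and 8.8% were higher and 22.1%, 14.6% and 9.5% lower. Summed leukocyte markers (6 genes) were lower with CTX in SCC1, at 8.35 to 16.7 against 18.7 to 53.4 CPM, and in SCC6, at 4.01 to 7.25 against at least 16.6 CPM, without overlap in either line. In SCC25 they were 146 to 175 CPM with CTX and 166 to 233 CPM with PBS. CD68 alone was 145 to 174 CPM with CTX and 165 to 231 CPM with PBS in SCC25. Of the other leukocyte markers, PTPRC reached at most 0.301 CPM and LYZ at most 0.11 CPM in any line. CD68 was lower in each line (−2.15, −1.89 and −0.31, adjusted p = 9.9e-06, 2.9e-05 and 0.021), and it was the only one called of 2, 1 and 2 tested. Summed endothelial markers (5 genes) were 9.39 to 18.5 CPM with CTX and 6.28 to 14.8 CPM with PBS in SCC1. Transcripts that lack a poly(A) tail, a sign of how tightly the enrichment worked, summed to 11.8 to 18.9 CPM with CTX and 20.3 to 36.6 CPM with PBS in SCC1, 16.5 to 46.4 and 17.7 to 22.1 CPM in SCC25, and 6.03 to 20.7 and 8.94 to 22.9 CPM in SCC6. Replication histones, also mostly without a tail, were higher with CTX in SCC1 (196 to 274 against 115 to 148 CPM), with 19 of 33 genes higher, and in SCC25 (300.2 to 383 against 242 to 284 CPM), with 17 of 41 higher. In SCC6 they were 176 to 199 CPM with CTX and 159 to 205 CPM with PBS. The part of these shifts in the changes of the 6 lncRNAs was not tested.

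The genes whose level followed each member most closely were sought among 10084 genes over the 30 libraries of days 1 to 5, after the mean of each line was removed. These correlations describe libraries that share lines, treatment and flow cells, and carry no p. H19 was followed by ARPIN, an inhibitor of the Arp2/3 complex (Pearson r 0.953, Spearman rho 0.961), IGFL2-AS1 (r 0.945) and TRAFD1 (r 0.937). MIR31HG was followed by RAPGEF3, an exchange factor activated by cAMP (r 0.952, rho 0.907), the endocytic gene EHD4 (r 0.928) and SEC14L2 (r 0.927). PVT1 was followed by RACK1 (r 0.855, rho 0.875) and RPLP0 (r 0.845), both of the ribosome, and the mitochondrial folate enzyme MTHFD1L (r 0.844). NEAT1 was followed by 3 splicing-related genes, ARGLU1 (r 0.844, rho 0.875), LUC7L3 (r 0.843) and HNRNPH1 (r 0.832). MALAT1 was followed by ZBTB37 (r 0.844, rho 0.856), GSDMB (r 0.833) and EHHADH (r 0.813), and MIR205HG by the chromatin protein gene HMGB3 (r 0.889, rho 0.829), TMEM138 (r 0.852) and TMEM19 (r 0.844). Without the 2 libraries farthest from the median of the member, the first-ranked r was 0.939 for H19, 0.944 for MIR31HG, 0.825 for PVT1, 0.791 for NEAT1, 0.787 for MALAT1 and 0.859 for MIR205HG.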

How the data were processed

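RNA-seq was performed on 33 libraries of SCC1, SCC6 and SCC25 (2 × 100 base reads). Estimated counts per gene were deposited by the authors. They were made with Salmon (0.8.2 in the submitters' processing notes, builds hg19 and GRCh37) and tximport. The annotation is not given in the sources used here. The table has 0 columns of no sample. The authors used DESeq2.

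Here the counts were rounded to whole numbers and tested with edgeR 4.0.16 (filterByExpr, TMM, quasi-likelihood F test, R 4.3.3), with Benjamini-Hochberg adjustment over all genes tested and a threshold of 0.05. CPM were scaled by TMM, and correlations used log2(CPM + 0.5). Groups came from the labels of line, treatment and day. Day 0 has no CTX library and entered only the PBS comparisons. The edgeR and DESeq2 fits of single contrasts were run on simulated counts with known changes. The joint test between lines and the list, neighbour, correlation, promoter and permutation steps were not. DESeq2 1.42.0, its size factors, no filter, day as a block, flow cell, a GC trend and each library left out were the alternatives. Symbols were matched to GENCODE (34694 directly, 1335 by an older symbol).

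Named genes were the members, the 3 genes most correlated with each among those of mean log2 CPM of at least 3, up to 3 called genes per list and line by size of change, the nearest tested neighbours, and NONO, SFPQ, PSPC1, SON, IGF2 and CDKN1C. Of the nearest neighbours, 1 is not reported here. TH and IFNE were named after their values were seen. The members and lists were chosen with earlier results of these data known.

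Day labels pair the CTX and PBS libraries. Deviations from the group means of same-day libraries correlated at 0.083 to 0.27 in SCC1 and 0.17 to 0.36 in SCC25, and at 0.34, −0.10 and 0.064 on days 3 to 5 in SCC6. Those of SCC6 CTX 2a and 2b correlated at −0.35 and −0.29 with PBS day 1 and at 0.35 and 0.40 with PBS day 2. The day block in SCC6 nevertheless sets 1 of them as day 1. MIR31HG has the fewest counts, 35.9 per library at the lowest in SCC1.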

Additional observations from a re-analysis of the deposited data

Results flagged for a closer look

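H19 in SCC1 with CTX on day 5, at 9244 CPM, stood farther from the rest of its group (4763 to 6056 CPM) than Dixon's limit allows, the only such library among 36 groups tested. Chance alone flags about 1 in 20 groups.

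The change with CTX differed between lines for MIR31HG (adjusted p = 7.9e-07 in the joint edgeR test), with a larger decrease in SCC1 than in SCC6 (adjusted p = 8.9e-07) and SCC25 (adjusted p = 1.5e-05). It also differed for H19 (adjusted p = 0.036), with a larger increase in SCC1 than in SCC6 (adjusted p = 0.039), and for MIR205HG between SCC6 and SCC25 (adjusted p = 0.028).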

How the results depend on the processing

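Of 1372 recalculated results on the 58 reported values of members, 1270 kept direction and side of the threshold, 49 lost the call, 41 gained it and 12 changed sign, of which none was a called value. Members called in SCC1 (4) were 2 with flow cell as a covariate or in flow cell C alone, and 3 to 5 with 1 library left out. In SCC6 (1) they were 2 with the day block under either pairing or without a GC trend, 3 without both day 2 libraries (chosen after seeing the data), and 1 to 2 with 1 library left out. In SCC25 (2) they were 5 with the day block, 4 with DESeq2, 1 with flow cell or in flow cell A alone, and 1 to 2 with 1 library left out. The block changed no other call of a member than those given above. With the lines together (5) they were 3 with flow cell, and between lines (2) 1 with flow cell and 1 to 3 with 1 library left out. The SCC1 PBS trend (0) had 2 with DESeq2 or no filter and 0 to 3 with 1 library left out, the SCC6 trend (1) 0 on days 1 to 5 and 0 to 3, and the SCC1 change with day (0) 0 to 1. Signs changed near zero. NEAT1 in SCC1 was 0.13 with flow cell, 0.12 in flow cell C and −0.24 to 0.14 with 1 library left out. MIR31HG in SCC6 was 0.018 without a GC trend, 0.21 without both day 2 libraries and −0.18 to 0.13 with 1 left out, and between SCC1 and SCC25 in PBS 0.034 on days 1 to 5 and −0.25 to 0.016. Over all genes, calls in SCC1 (8061) fell to 4099 with flow cell and 3523 in flow cell C, in SCC25 (3496) to 1364 with flow cell and 1899 in flow cell A but rose to 5728 without a GC trend, and between lines (5586) fell to 2979 with flow cell. Trend calls moved from 474 to 1468 (DESeq2) and 99 (days 1 to 5) in SCC1, from 5812 to 1892 in SCC6 and from 2147 to 1090 in SCC25 (days 1 to 5). With 1 library left out, calls were 2193 to 2278 in SCC25 without PBS day 2 or 3 or CTX day 4 or 5, and 24 to 1575 (SCC1), 1892 to 3639 (SCC6 without PBS day 0, 1 or 5) and 1090 to 1337 (SCC25 without PBS day 0, 1 or 5) for the trends. The SCC1 change with day (103) had 421 calls with DESeq2, 250 with no filter and 5 to 334 with 1 library left out. The cause was not tested. Flow cell alternatives compare fewer libraries, and leave 1 SCC1 PBS library or 2 SCC25 CTX libraries.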
